A study of Mus musculus with 2 samples.

Results

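The genes described here are 10 genes whose products neutrophils store in granules or hold in the cytoplasm: *Ltf*, *Camp*, *Ngp*, *Lcn2*, *Mmp8*, *Mmp9*, *Olfm4* and the stefins *Stfa1*, *Stfa2l1* and *Stfa3*. They were chosen by name from the 32285 genes of the count files, and all 10 were found. Their UMIs (unique molecular identifiers, each standing for 1 captured transcript) were summed in barcodes gated as neutrophils, monocytes and T cells. Neutrophil barcodes held 20 or more UMIs of *S100a8* and *S100a9* together and were split by whether they held a *Ly6g* UMI. Monocyte barcodes held 5 or more UMIs of *Lyz2* and none of *C1qa*, and T cell barcodes held *Cd3e* and no *Lyz2*.

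The libraries came from C57BL/6 mice with the wild type *Ptpn22* allele (PEP-WT) or homozygous for an arginine-to-tryptophan substitution in the phosphatase PEP (PEP-619WW). The substitution was made in the germline by CRISPR/Cas9, so that all cells of the animal carry it. Mice of both genotypes were infected with LCMV-cl13 (lymphocytic choriomeningitis virus, clone 13, which sets up a lasting infection), and no uninfected mouse was sequenced. At 8 days post infection (dpi), spleen cells of 4 to 5 mice per genotype were pooled and live CD45+ cells were sorted. Mice in the study were 6 to 12 weeks old and of both sexes. The study describes the pooled mice as matched for age and sex, without naming the sex. GEO's labels instead name liver, the Jurkat line and tumor infiltrating cells for both samples. Each genotype is 1 sample of pooled mice with 2 deposited sets of counts, of which 1 was used. The cell numbers in the study's methods are those of the other set, and no source used here gives how the sets relate. That the set used came from these pools rests only on the sample it was deposited under. No difference between genotypes has a replicate check, and no test was possible. Intervals are 95% intervals, exact for levels, shares and ratios and Newcombe intervals for differences of shares, and cover counting error only.

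Neutrophils build their granules in order as they mature in bone marrow. Primary granules with myeloperoxidase and elastase come first, secondary granules with lactoferrin and cathelicidin follow at the stage when division stops, and gelatinase granules come last. Transcription of the secondary granule genes depends on the factor C/EBPε and largely ends before the cell reaches the blood. Stefins are small cytoplasmic inhibitors of cathepsins, and the mouse genome carries a cluster of related copies.

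In run 1, the set of counts used here, the libraries held 14821 barcodes with 77916082 UMIs (PEP-WT) and 8576 barcodes with 56745578 UMIs (PEP-619WW), and 39 barcodes occurred in both. Of these, 806 (PEP-WT) and 864 (PEP-619WW) passed the neutrophil gate, and 302 and 373 of them had a *Ly6g* UMI. Median depth of the *Ly6g*-positive barcodes was 4421.5 and 4764 UMIs, and that of the *Ly6g*-negative barcodes 2846.5 and 2811. The gate's name was checked on *Cxcr2*, a neutrophil chemokine receptor that the gate did not use. It was detected in 80.1% (PEP-WT) and 78.8% (PEP-619WW) of *Ly6g*-positive barcodes, in 64.1% and 30.3% of *Ly6g*-negative barcodes, and in at most 1.60% of monocyte or T cell barcodes. The *Ly6g*-negative barcodes of PEP-619WW mice thus stood lower in *Cxcr2*. *Retnlg*, another neutrophil gene that the gate did not use, was found in 80.4% and 81.1% of *Ly6g*-negative barcodes and in 3.20% and 19.0% of monocyte barcodes. The class is called by its gate below, and not all of its barcodes need be neutrophils. A second deposited set of counts, run 2, stood apart: its neutrophil gate held 590 and 1071 barcodes, of which only 19 and 26 had *Ly6g*. Between runs 1 and 2 only 38 (PEP-WT) and 19 (PEP-619WW) barcodes were shared, against 39 and 31 between the genotypes of a run. Run 2 entered no value except where it is named.

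On GRCm38, 4 of the genes lie on chromosome 9. *Ltf* (lactoferrin, which binds iron) spans 111019271 to 111042767, *Camp* (the cathelicidin precursor) 109847379 to 109849617, *Ngp* (neutrophilic granule protein, a relative of the cathelicidins and cystatins) 110419747 to 110423012, and *Mmp8* (neutrophil collagenase) 7558456 to 7568485. *Lcn2* (lipocalin 2, which captures bacterial siderophores) and *Mmp9* (gelatinase B) lie on chromosome 2 at 32384633 to 32388252 and 164940780 to 164955850. *Olfm4* (olfactomedin 4, carried by a subset of neutrophils) lies on chromosome 14 at 79984081 to 80023139. The stefins sit in the cluster on chromosome 16, *Stfa2l1* at 36156811 to 36161953, *Stfa1* at 36276951 to 36285373 and *Stfa3* at 36450537 to 36455392. The member stefins were 82.2% to 85.9% identical to each other, while *Stfa1* was 97.1% identical to *BC100530* and *Stfa2l1* 96.8% to *Stfa2*. A read from a stretch that copies share cannot be assigned to 1 of them. Of the 90-base windows in the last 500 bases of the transcript, 9.49% of *Stfa1* windows were identical to *BC100530*, 2.42% of *Stfa2l1* windows to *Stfa2*, and 0% of *Stfa3* windows to any other stefin, so the first 2 are the less certain values.

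Promoters are shown for the 3 genes that were most tightly detected together, *Ltf*, *Camp* and *Ngp*, and for the 3 stefins. Each is the 250 bases upstream of the RefSeq start on GRCm38.p6, read 5′ to 3′ on the strand of the gene. Capitals mark TTGCNNAA, a core of sites for C/EBP factors, searched on both strands (TTNNGCAA on the other strand; the patterns overlap where a site fits both).
Ltf, chr9:111019042-111019291, plus strand: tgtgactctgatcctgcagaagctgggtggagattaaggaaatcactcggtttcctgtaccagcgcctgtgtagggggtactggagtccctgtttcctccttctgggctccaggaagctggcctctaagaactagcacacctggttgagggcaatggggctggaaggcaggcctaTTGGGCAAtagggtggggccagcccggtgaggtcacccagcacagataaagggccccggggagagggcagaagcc
Camp, chr9:109849457-109849706, minus strand: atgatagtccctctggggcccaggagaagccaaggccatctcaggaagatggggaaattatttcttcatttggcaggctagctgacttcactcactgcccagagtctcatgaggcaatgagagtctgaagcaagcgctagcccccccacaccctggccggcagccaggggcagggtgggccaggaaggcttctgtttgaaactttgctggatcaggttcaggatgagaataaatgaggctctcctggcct
Ngp, chr9:110419558-110419807, plus strand: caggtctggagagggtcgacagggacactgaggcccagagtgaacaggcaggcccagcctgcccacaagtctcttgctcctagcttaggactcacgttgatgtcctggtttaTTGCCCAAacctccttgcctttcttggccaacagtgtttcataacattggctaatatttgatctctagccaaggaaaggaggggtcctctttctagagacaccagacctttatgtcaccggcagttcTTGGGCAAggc
Stfa1, chr16:36276898-36277147, plus strand: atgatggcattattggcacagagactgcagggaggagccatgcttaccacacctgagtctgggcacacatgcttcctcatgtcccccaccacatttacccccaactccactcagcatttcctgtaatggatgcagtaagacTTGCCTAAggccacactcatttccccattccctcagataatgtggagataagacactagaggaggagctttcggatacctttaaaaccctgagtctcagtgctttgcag
Stfa2l1, chr16:36156561-36156810, plus strand: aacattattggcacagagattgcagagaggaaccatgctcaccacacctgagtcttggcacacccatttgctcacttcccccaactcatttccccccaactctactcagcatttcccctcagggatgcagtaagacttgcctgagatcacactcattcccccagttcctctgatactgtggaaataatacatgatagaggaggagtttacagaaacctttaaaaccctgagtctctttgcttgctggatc
Stfa3, chr16:36455393-36455642, minus strand: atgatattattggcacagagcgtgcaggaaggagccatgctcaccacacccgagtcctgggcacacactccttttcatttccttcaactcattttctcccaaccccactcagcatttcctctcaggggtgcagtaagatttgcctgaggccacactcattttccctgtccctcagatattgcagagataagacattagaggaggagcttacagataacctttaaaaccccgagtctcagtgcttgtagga

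RefSeq promoters were at hand for 9 of the 10 genes, all but *Mmp9*. The letters TTGCNNAA were present in 5 of the 9 windows (*Ltf*, *Ngp*, *Lcn2*, *Mmp8* and *Stfa1*), and in 9.55% of 27025 promoters of the same length. *Ngp* held the match at 138 and 11 bases before its start (positions -138 and -11), *Ltf* at -75, *Stfa1* at -109, *Mmp8* at -19 and *Lcn2* at -216. The letters GAGGAAG, a core for the factor PU.1, were in 4 of the 9 (*Lcn2*, *Mmp8*, *Olfm4* and *Stfa1*) and in 10.4% of all promoters. A match is a description of these letters and not a binding site. The RefSeq starts are not always the starts of the gene spans given above, which come from GENCODE. The *Lcn2* and *Olfm4* windows lie wholly inside those spans. The matches of *Lcn2* and *Stfa1* and the -11 match of *Ngp* also fall inside them, so the count depends on the start chosen. The 3 stefin promoters were 84.4% to 86.9% identical to each other, against 64.6% to 78.1% for the other 33 pairs of member promoters. Identity is over aligned bases only, and gaps were 10 to 14 bases in stefin pairs and 64 to 126 in the others.

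The granule and stefin genes lay mostly in the neutrophil gate, which held 84.5% to 99.0% of the UMIs of each gene in the PEP-WT library and 93.7% to 98.3% in the PEP-619WW library. Levels are given as UMIs of a gene per 1000000 UMIs of the class (CPM). *Ltf* stood at 1993 CPM in *Ly6g*-positive barcodes of PEP-WT mice (1935 to 2054), at 128 in *Ly6g*-negative barcodes (116 to 141), at 0.801 in monocytes (0.218 to 2.05) and at 0.828 in T cells (0.379 to 1.57). In the same classes of PEP-619WW mice *Ltf* stood at 2396 (2335 to 2458), 309 (290 to 330), 4.16 (2.27 to 6.97) and 2.34 (1.45 to 3.58). The monocyte and T cell intervals of *Ltf* overlapped in both libraries, so the order of these neighbours was not told apart.

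All 10 genes were more than 2-fold higher in *Ly6g*-positive neutrophil barcodes than in T cell barcodes in both libraries, with a median log2 ratio of 11.09 in PEP-WT and 10.49 in PEP-619WW. Over all genes with 20 or more UMIs, 12.7% (PEP-WT) and 12.2% (PEP-619WW) were that much higher than in T cells, and the median gene was lower in the neutrophil barcodes (log2 -0.41 and -0.65). T cell barcodes served as the background of free RNA. They held between 0 and 3.22 CPM of each member in PEP-WT and between 0.111 and 6.69 in PEP-619WW, with a median depth of 4219 and 6471 UMIs per barcode. Against the *Ly6g*-negative barcodes, 9 of 10 genes were past 2-fold higher in *Ly6g*-positive barcodes of PEP-WT mice and 10 of 10 in PEP-619WW mice, where 1.91% and 4.68% of all genes were. The exception was *Olfm4* in PEP-WT mice, at 1.90-fold (1.08 to 3.35) from 31 and 25 UMIs. The classes also differ in depth, as given above, and the part of depth in these ratios was not tested.

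**Figure D1:**
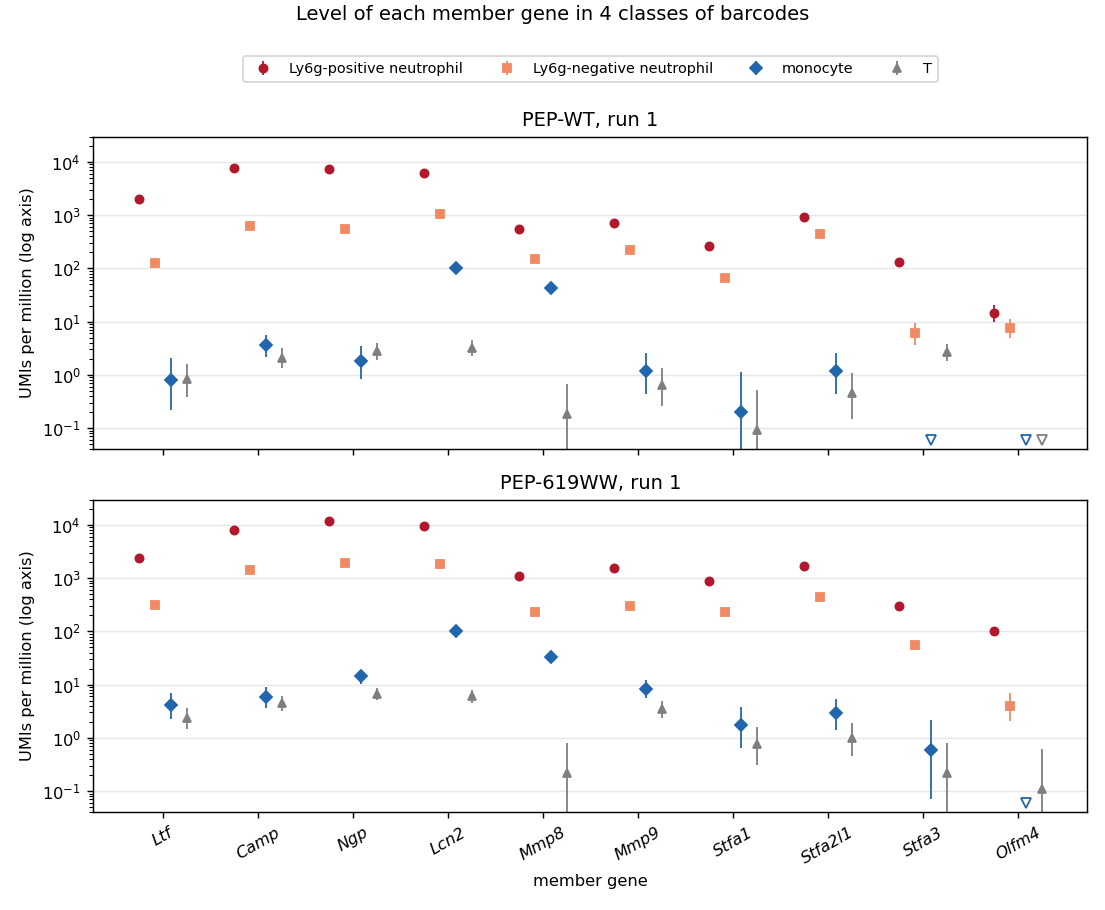
Levels of the 10 genes in the 4 classes of barcodes of each run 1 library, as CPM on a log axis, with exact 95% Poisson intervals as bars and open triangles at the bottom for 0 UMIs. For all 10 genes the *Ly6g*-positive barcodes sit highest, and *Lcn2* and *Mmp8* are the genes with monocyte points more than 10-fold above the T cell points.

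Monocyte barcodes stood above the T cell background for some of these genes. *Lcn2* reached 103 CPM in PEP-WT monocytes (93.8 to 112) and 102 in PEP-619WW monocytes (91.6 to 114), 31.8-fold and 16.7-fold above T cells of the same library. *Mmp8* reached 42.6 (37.1 to 48.8) and 33.6 (27.7 to 40.3), where T cells held 2 UMIs in each library. The other 8 genes stood at 14.3 CPM or lower in monocytes of either library, and *Olfm4* had 0 UMIs in both, which allows up to 0.601 and 0.891 CPM at a limit of 3 UMIs per library. These monocytes exclude barcodes that also passed the neutrophil gate. By the monocyte rule alone 444 PEP-WT and 464 PEP-619WW neutrophil barcodes would be counted as monocytes, and the summed level of the 10 genes would be 7436 and 14619 CPM in place of 154 and 174.

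Between genotypes, the level of each of the 10 genes from summed UMIs was higher in PEP-619WW than in PEP-WT *Ly6g*-positive barcodes, *Ltf* and *Camp* only by some summaries, with a median log2 ratio of 0.93 (range 0.11 to 2.86) where the median of all 9078 genes was -0.18. Past 2-fold, 4 of 10 were higher (*Olfm4*, *Stfa1*, *Stfa3* and *Mmp9*) and 0 lower, and over all genes 1.75% were higher and 8.80% lower. With libraries scaled by the median of gene ratios in place of total UMIs, the split over all genes moved from 159 higher and 799 lower to 294 higher and 489 lower, and 6 members were past 2-fold. Those 294 and 489 were 3.24% and 5.39% of all genes. Without barcodes of mixed content, with barcodes thinned to 1000 UMIs or with each barcode counted equally, 2 were (*Olfm4* and *Stfa1*), and *Mmp9* fell to between 0.66 and 0.68 and *Stfa3* to between 0.53 and 0.76. The share of all genes past 2-fold in these settings is not given here, so this count stands without a background. Among *Ly6g*-negative barcodes 8 of 10 genes were higher, with a median log2 ratio of 0.99 against -0.06 for 10143 genes. There 5 of 10 were past 2-fold higher (*Stfa3*, *Ngp*, *Stfa1*, *Ltf* and *Camp*) and 0 lower, where 2.00% of all genes were higher and 3.59% lower. Over the alternatives in run 1 the count past 2-fold in either direction was 3 to 7, and *Olfm4* fell to as low as -1.05. With scaling by the median of gene ratios, 2.32% of all genes were higher and 3.09% lower in this class. For the other alternatives the share of all genes is not given here, so their counts stand without a background. In the *Ly6g*-negative barcodes of run 2 the median was -0.0095 over the 8 genes with more than 3 UMIs in both libraries, and 4 of these had a lower level in PEP-619WW (log2 -0.31 for *Lcn2*, -0.76 for *Mmp8*, -0.91 for *Stfa1* and -1.05 for *Stfa3*). Macrophage markers in that class of run 2 summed to 4315 CPM in PEP-WT and 860 in PEP-619WW, and melanocyte markers to 70.2 and 17.0 CPM, and their part in these ratios was not tested.

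Barcodes of the neutrophil gate also held marker RNA of other cell types, and this differed between the libraries. Erythroid markers (4 of 4 measured, 2 or more UMIs summed) were found in 27.8% (PEP-WT) and 4.83% (PEP-619WW) of *Ly6g*-positive barcodes, although their summed level was 1336 and 1349 CPM. Plasma cell markers (4 of 4) were found in 35.9% and 67.6% of *Ly6g*-negative barcodes, at 2410 and 3844 CPM. Markers of granulocyte progenitors (5 of 5) summed to 326 and 37.4 CPM in *Ly6g*-positive barcodes, and to 967 and 1059 in *Ly6g*-negative barcodes. *Mpo*, *Elane*, *Prtn3* and *Ctsg* of this list also set the primary state of the gate below, so they need not be RNA of other cells. In PEP-WT, 5 of 302 *Ly6g*-positive barcodes held 85.2% to 97.6% of the UMIs of each of these named genes. T cell markers (5 of 5) summed to 602 and 269 CPM in *Ly6g*-positive barcodes and to 618 and 474 in *Ly6g*-negative barcodes, although the share of *Ly6g*-negative barcodes with them was 14.1% and 24.4%. Erythroid markers were found in 27.4% and 14.9% of *Ly6g*-negative barcodes, at 2346 and 544 CPM, and B cell markers in 21.4% and 37.5%. Monocyte markers (6 of 6) summed to 2655 and 2107 CPM in *Ly6g*-positive barcodes and to 3682 and 3984 in *Ly6g*-negative barcodes, against 5584 and 4358 in the monocyte class. Macrophage markers (5 of 5) summed to 365 and 345 CPM in *Ly6g*-positive barcodes. In *Ly6g*-negative barcodes of PEP-WT they summed to 763 CPM, found in 19.0% of barcodes, against 187 CPM in PEP-WT monocytes, whose gate left out *C1qa*. Subtracting the level of T cell barcodes kept 10 (*Ly6g*-positive) and 9 (*Ly6g*-negative) of the 10 ratios within their intervals. T cell barcodes, chosen to hold no *Lyz2*, had at most 6.69 CPM of a member, so this could move only genes at low levels. No conclusion on RNA of other cells is drawn from it. Leaving immunoglobulin, hemoglobin and mitochondrial genes out of the total kept 10 and 10 within their intervals. Leaving out barcodes with 2 or more UMIs of B, T, plasma or erythroid markers kept 130 of 302 and 199 of 373 *Ly6g*-positive barcodes and gave a median log2 ratio of 0.62, and 1.38 in *Ly6g*-negative barcodes.

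*Ltf* and *Camp* had the smallest ratios by summed UMIs in the *Ly6g*-positive barcodes. *Ltf* had 4344 UMIs (1993 CPM) in PEP-WT and 5830 (2396 CPM) in PEP-619WW, a log2 ratio of 0.27 (0.21 to 0.32). *Camp* had 16473 UMIs (7559 CPM) and 19880 (8169 CPM), a log2 ratio of 0.11 (0.08 to 0.14). The direction of both rested on how barcodes were summed. With each barcode counted equally, mean levels were lower in PEP-619WW (2390 and 1850 CPM for *Ltf*, 7880 and 6067 for *Camp*), and the log2 ratios were also negative with barcodes thinned to 1000 UMIs (-0.33 and -0.31) or without barcodes of mixed content (-0.48 and -0.56). No direction is therefore given for *Ltf* and *Camp* in *Ly6g*-positive barcodes.

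The share of barcodes with a UMI and the median where detected went opposite ways for these genes. Among *Ly6g*-positive barcodes, a *Ltf* UMI was found in 34.4% for PEP-WT (29.1 to 40.1) and 45.3% for PEP-619WW (40.2 to 50.5), whereas the median where detected was 44.5 and 18 UMIs. For *Camp* the shares were 42.4% (36.7 to 48.2) and 56.0% (50.8 to 61.1), with medians of 60.5 and 29 UMIs. Thinned to 1000 UMIs, the shares were 30.7% (25.5 to 36.2) and 36.8% (31.8 to 42.0) for *Ltf*, and 38.0% (32.5 to 43.8) and 47.5% (42.3 to 52.8) for *Camp*, and for both genes these intervals overlapped. In T cells of the same libraries 0.509% and 1.88% of barcodes held *Ltf*, and 1.30% and 3.66% held *Camp*.

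*Ngp* was higher in both classes of PEP-619WW neutrophil barcodes. In *Ly6g*-positive barcodes it had 7294 CPM in PEP-WT (7181 to 7408) and 11879 in PEP-619WW (11743 to 12017), a log2 ratio of 0.70 (0.68 to 0.73). Its *Ly6g*-negative levels were 550 (525 to 576) and 1917 (1868 to 1967), a log2 ratio of 1.80 (1.72 to 1.88). Detection of *Ngp* in that class was 15.3% for PEP-WT (12.2 to 18.7) and 50.7% for PEP-619WW (46.2 to 55.2), and 9.03% and 34.5% once thinned. T cells of the same libraries held it in 1.70% and 4.95% of barcodes, or 0.404% and 0.612% once thinned. The 10 barcodes with the most *Ngp* held 63.8% and 54.4% of its UMIs in that class, so its level there rests on few barcodes while its detection does not.

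*Lcn2* was the member found in most *Ly6g*-positive barcodes, with 92.4% for PEP-WT (88.8 to 95.1) and 94.4% for PEP-619WW (91.5 to 96.5). It had 6140 and 9438 CPM, a log2 ratio of 0.62 (0.59 to 0.65), and the median where detected was 17 and 35.5 UMIs. Without *Ly6g*, *Lcn2* had 1064 and 1849 CPM, a log2 ratio of 0.80 (0.74 to 0.86). Its ratio in *Ly6g*-positive barcodes ranged from 0.08 to 0.78 over the alternatives in run 1, with PEP-619WW higher in each.

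Both metalloproteinases followed. *Mmp8* had 554 CPM in PEP-WT (524 to 587) and 1083 in PEP-619WW (1042 to 1125) *Ly6g*-positive barcodes, a log2 ratio of 0.97 (0.87 to 1.07). *Mmp9* had 726 (690 to 762) and 1549 (1500 to 1599), a log2 ratio of 1.09 (1.01 to 1.18). The differences were smaller in *Ly6g*-negative barcodes, with log2 ratios of 0.63 (0.46 to 0.80) for *Mmp8* and 0.48 (0.34 to 0.62) for *Mmp9*, and there *Mmp9* was detected in 55.4% (PEP-WT) and 48.7% (PEP-619WW) of barcodes.

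Among the stefins, *Stfa1* was higher in PEP-619WW in both classes. It had 574 UMIs (263 CPM) in PEP-WT and 2122 UMIs (872 CPM) in PEP-619WW *Ly6g*-positive barcodes, a log2 ratio of 1.73 (1.59 to 1.86), and the ratio was 1.79 (1.57 to 2.02) in *Ly6g*-negative barcodes. Over the alternatives in run 1 it ranged from 1.12 to 1.89 in *Ly6g*-positive and from 0.76 to 2.18 in *Ly6g*-negative barcodes, where 0.76 was the value without the 10 barcodes richest in members. It was detected in 15.6% (11.7 to 20.2) and 20.6% (16.6 to 25.1) of *Ly6g*-positive barcodes. The 10 barcodes with the most *Stfa1* held 64.1% and 48.4% of its UMIs. A few barcodes thus held much of it, up to 66 UMIs in PEP-WT and 209 in PEP-619WW, while the median where detected was 6 and 11 UMIs.

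*Stfa3* had 284 UMIs (130 CPM) and 727 UMIs (299 CPM) in *Ly6g*-positive barcodes, a log2 ratio of 1.20 (1.00 to 1.40). Barcodes without *Ly6g* held 20 UMIs of it (5.99 CPM) in PEP-WT and 169 UMIs (55.5 CPM) in PEP-619WW, a log2 ratio of 3.21 (2.54 to 3.96), and 77.5% of the latter lay in 10 barcodes. Over the alternatives in run 1 that ratio ranged from 2.03 to 4.23. The T cell barcodes of PEP-WT mice held 29 *Stfa3* UMIs in 9 barcodes, a level of 2.67 CPM (1.79 to 3.83). *Stfa2l1* differed between the classes: its log2 ratio was 0.90 (0.82 to 0.97) in *Ly6g*-positive barcodes, from 914 and 1700 CPM, and -0.04 (-0.14 to 0.07) in *Ly6g*-negative barcodes, from 449 and 438, where its sign changed over the alternatives (-0.20 to 0.74).

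*Olfm4* had the largest ratio in *Ly6g*-positive barcodes and the fewest barcodes behind it. It had 31 UMIs in 8 barcodes of PEP-WT mice (2.65%, 1.15 to 5.15) and 252 UMIs in 22 barcodes of PEP-619WW mice (5.90%, 3.73 to 8.79). The levels were 14.2 CPM (9.67 to 20.2) and 104 (91.2 to 117), a log2 ratio of 2.86 (2.32 to 3.45), while the detection intervals overlapped. Over the alternatives in run 1 this ratio ranged from 2.08 to 3.02. The *Ly6g*-negative class held 25 UMIs in 6 barcodes and 12 UMIs in 8 barcodes, a log2 ratio of -0.93 (-2.05 to 0.12), whose sign changed over the alternatives in run 1 (-1.05 to 1.21).

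**Figure D2:**
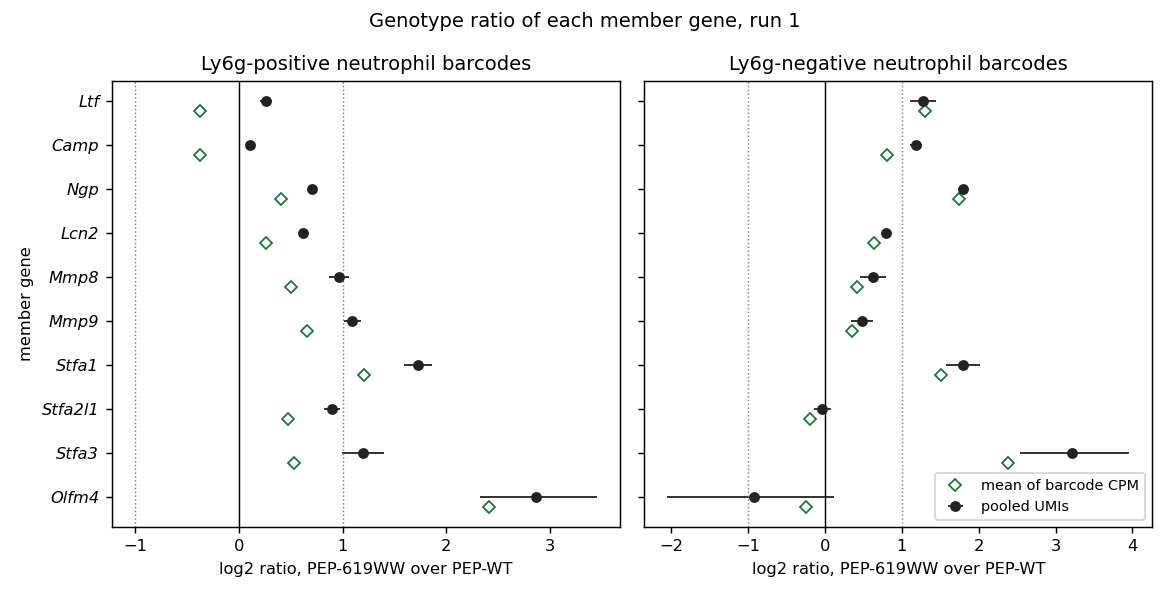
Log2 ratio of PEP-619WW over PEP-WT for each gene in *Ly6g*-positive (left) and *Ly6g*-negative (right) neutrophil barcodes of run 1. Black points are ratios of summed UMIs as CPM with exact 95% intervals, green diamonds are ratios of the mean of barcode levels, and dotted lines mark 2-fold. In the left panel *Ltf* and *Camp* lie on opposite sides of 0 by the 2 summaries, and the other 8 genes lie above 0 by both.

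The states of the neutrophil gate were set on genes outside the members. Barcodes with 10 or more UMIs of *Mpo*, *Elane*, *Prtn3* and *Ctsg* were called primary (26 in PEP-WT, 33 in PEP-619WW), others with 2 or more UMIs of *Mki67* and *Top2a* cycling (101 and 87), others with *Cxcr2* mature (498 and 403), and 181 and 341 remained. These names stand for the rules only, and mature here means 1 or more *Cxcr2* UMIs, not a proven stage. Mature barcodes made up 61.8% (PEP-WT, 58.3 to 65.2) and 46.6% (PEP-619WW, 43.3 to 50.0) of the gate. Of the 4 states, the mature one held the most members past 2-fold between genotypes. Of 10 genes in mature barcodes, 8 were past 2-fold higher in PEP-619WW and 0 lower, with a median log2 ratio of 1.25, where 2.68% of 8272 genes were higher and 9.83% lower. *Camp* stood at 2825 and 6452 CPM (log2 1.19, 1.15 to 1.24) and *Ngp* at 3551 and 11494 (1.69, 1.66 to 1.73). The other 2 were *Ltf* at 1028 and 2014 CPM (0.97, 0.89 to 1.05) and *Stfa2l1* at 1221 and 2117 (0.79, 0.72 to 0.87). All ratios in the states are from summed UMIs, and the alternatives in run 1 were not run for them. Detection of *Ly6g* in mature barcodes was 41.8% for PEP-WT and 66.5% for PEP-619WW, at a median depth of 2707.5 and 3835 UMIs. Genes outside the members also differed in this state, with *Cebpe* at 75.0 and 144 CPM and *Il1b* at 4709 and 2536. In PEP-619WW *Cebpe* was higher there than in primary (70.2), cycling (122) or remaining (72.8) barcodes. A *Ltf* UMI was found in 14.1% and 36.2% of mature barcodes, and a *Camp* UMI in 18.9% and 42.9%. The mature barcodes of the libraries were thus not alike, and the part of this in the ratios was not tested.

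In the other states the median over the genes was lower or below 0. In the primary state 7 genes had 20 or more UMIs, 4 were past 2-fold lower in PEP-619WW (*Ltf*, *Ngp*, *Stfa2l1* and *Mmp9*) and 0 higher, where 6.21% of all genes were lower and 4.22% higher, and the median log2 ratio was -1.17. These rest on few barcodes: *Ltf* had 101 UMIs in 4 barcodes (PEP-WT) and 47 in 6 (PEP-619WW), *Stfa2l1* 25 in 3 and 4 in 4, *Mmp9* 18 in 4 and 3 in 2, and *Ngp* 948 in 11 and 567 in 9. *Stfa2l1* and *Mmp9* passed the minimum of 20 UMIs mainly through PEP-WT, where they were higher, so no conclusion is drawn from them. *Camp* stood at 2410 and 1295 CPM in that state, from 1505 UMIs in 13 barcodes and 1088 in 7. In the cycling state the median over 9 genes was 0.73, and 2 were past 2-fold higher and 0 lower, where 2.17% of all genes were higher and 5.24% lower. These were *Stfa1* at 106 and 502 CPM (2.25, 2.02 to 2.48) and *Stfa3* at 12.5 and 40.4 (1.69, 0.98 to 2.44). In the remaining barcodes 1 of 10 genes was past 2-fold higher and 0 lower, where 3.99% of all genes were higher and 3.05% lower. It was *Olfm4*, from 2 and 51 UMIs (4.03, 2.10 to 7.11), which passed the minimum only through PEP-619WW. There *Ltf* (-0.65, -0.76 to -0.53) and *Camp* (-0.89, -0.95 to -0.83) had lower levels in PEP-619WW by summed UMIs. Their detection went the other way, in 14.9% and 25.2% of the remaining barcodes for *Ltf* and in 17.7% and 39.3% for *Camp*, so no direction is given for them there either. The kappa light chain gene *Igkc*, a product of plasma cells, also differed by state, at 8533 and 42377 CPM in primary, at 25932 and 68908 in cycling, at 22430 and 20652 in the remaining and at 14042 and 9066 in mature barcodes. Its part in these ratios was not tested.

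**Figure D3:**
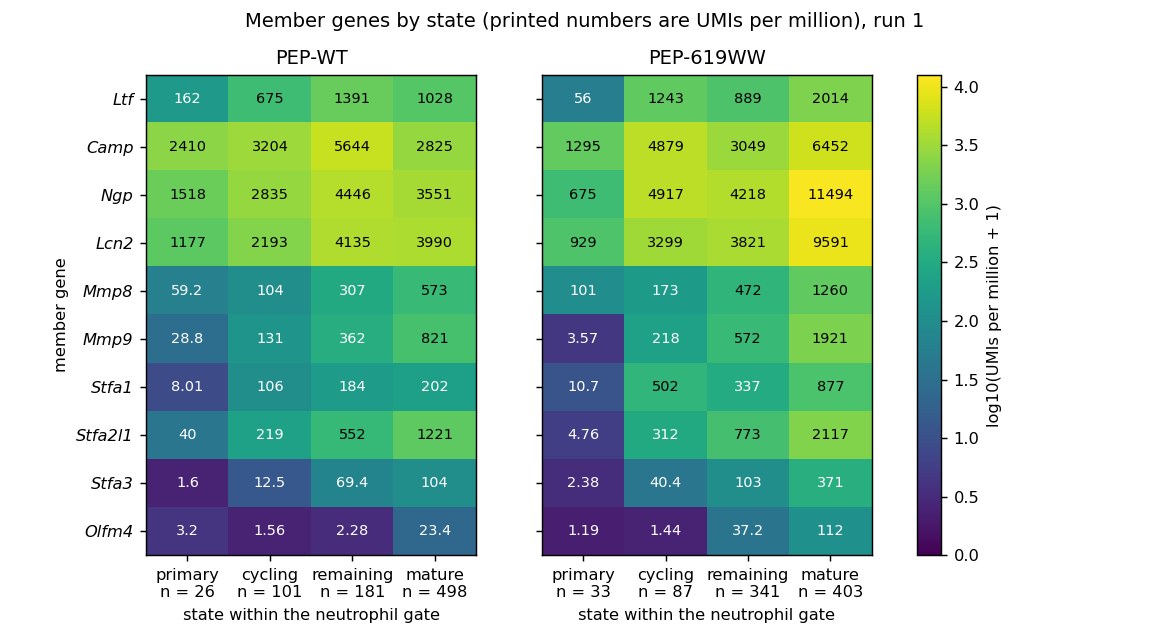
Levels of the 10 genes in the 4 states of the neutrophil gate for PEP-WT (left) and PEP-619WW (right), with CPM printed in each cell and the color on a log10 scale. The mature column of PEP-619WW holds the highest level of every gene in that library, whereas in PEP-WT *Ltf*, *Camp*, *Ngp* and *Lcn2* are highest in the remaining barcodes.

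The 10 genes together made up a large part of the RNA of single barcodes. Of all UMIs of *Ly6g*-positive barcodes they held 2.56% (PEP-WT) and 3.75% (PEP-619WW), and of those of *Ly6g*-negative barcodes 0.325% and 0.674%. In single barcodes the share reached 15.4% and 14.5%. At least 1% of a barcode's UMIs came from these genes in 49.7% (PEP-WT, 43.9 to 55.5) and 70.0% (PEP-619WW, 65.0 to 74.6) of *Ly6g*-positive barcodes, a difference of 20.3 percentage points (12.9 to 27.4). Of the *Ly6g*-negative barcodes, this was 9.92% (7.45 to 12.9) and 20.4% (16.9 to 24.2), a difference of 10.4 points (6.02 to 14.9). Over the whole gate the shares were 24.8% and 41.8%, a difference of 17.0 points (12.5 to 21.3), which was 14.1 to 32.4 over the alternatives in run 1. In run 2 the difference was 0.117 points (-2.03 to 1.98), from 3.90% and 4.01%. No monocyte or T cell barcode of run 1 reached 1%.

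Among *Ly6g*-positive barcodes the distributions of the libraries were apart in their lower part and met near the 80th percentile. The median share was 0.973% in PEP-WT and 2.05% in PEP-619WW *Ly6g*-positive barcodes, at the 80th percentile it was 6.31% and 6.33%, and at the 90th 10.1% and 9.23%. Among *Ly6g*-negative barcodes PEP-619WW was higher at the median (0.217% and 0.305%), the 80th (0.608% and 1.02%) and the 90th percentile (0.979% and 2.24%). A median of 5 and 6 of the 10 genes was detected per *Ly6g*-positive barcode, and 2 and 3 per *Ly6g*-negative barcode. No barcode held all 10.

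**Figure D4:**
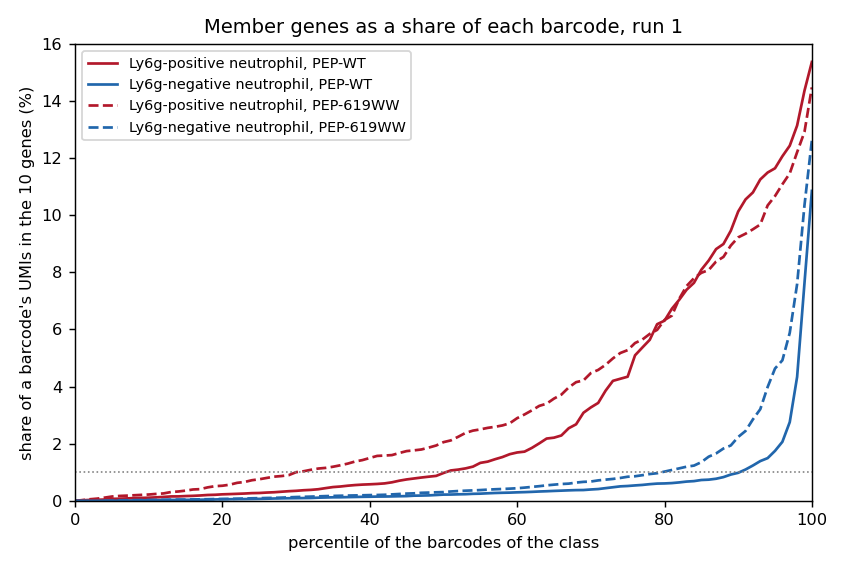
Share of a barcode's UMIs that came from the 10 genes (vertical axis, percent) at each percentile of the barcodes of a class (horizontal axis), for run 1, with the dotted line at 1%. The *Ly6g*-positive curves of PEP-WT (solid) and PEP-619WW (dashed) are apart at the median (0.973% and 2.05%) and meet at the 80th percentile (6.31% and 6.33%).

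Across barcodes of the neutrophil gate the genes formed a tight group of 3 and looser neighbours. Pearson's r of log-transformed levels was 0.94 in 806 PEP-WT barcodes and 0.84 in 864 PEP-619WW barcodes for *Ltf* with *Camp*, and it lay between 0.82 and 0.94 (PEP-WT) and between 0.69 and 0.84 (PEP-619WW) within *Ltf*, *Camp* and *Ngp*. *Lcn2* joined them at 0.73 and 0.75 with *Ngp*. The 3 stefins correlated at 0.20 to 0.32 and 0.26 to 0.40 with each other and at 0.01 to 0.31 and 0.10 to 0.37 with the group of 3. *Olfm4* correlated with no member above 0.10 and 0.16. These barcodes share a library, and depth and zero counts shape such values, so they are a description.

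**Figure D5:**
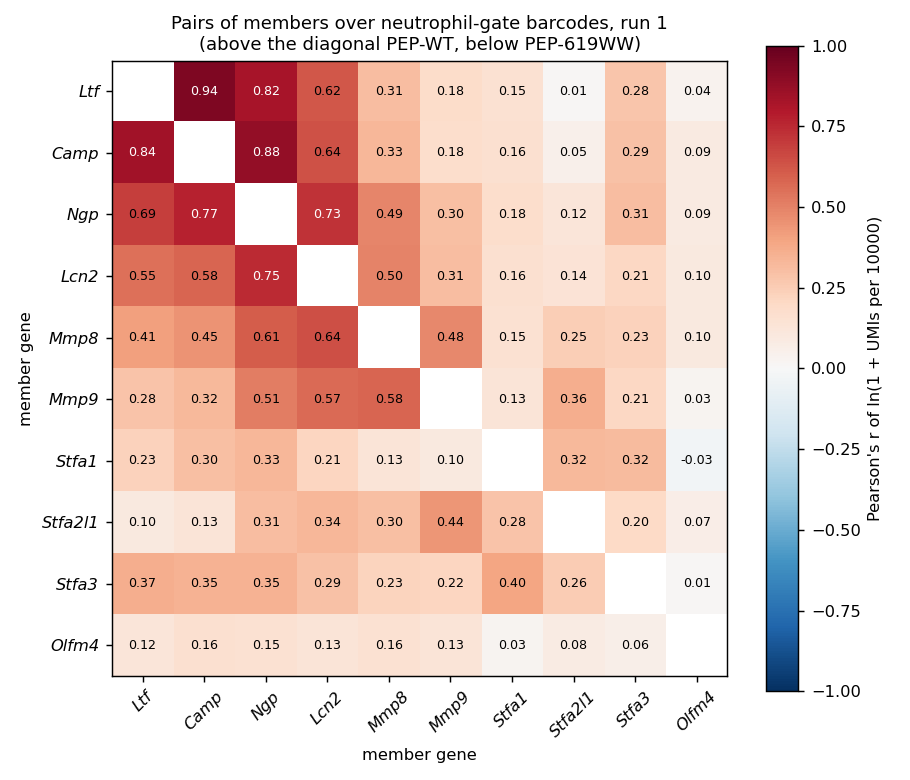
Pearson's r between members over neutrophil-gate barcodes of run 1, PEP-WT above the diagonal (806 barcodes) and PEP-619WW below it (864 barcodes), on ln(1 + UMIs per 10000). The block of *Ltf*, *Camp* and *Ngp* stands out at the upper left, and the *Olfm4* row and column stay near 0.

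Barcodes with 10 or more UMIs of *Ltf*, *Camp* and *Ngp* together made up 20.5% (165 barcodes, PEP-WT) and 34.6% (299, PEP-619WW) of the gate, and 65.0% (524) and 32.3% (279) held none. The barcodes rich in the group of 3 and those without it differed in the level of other genes, and also in median depth, at 5399 (PEP-WT) and 5498 (PEP-619WW) UMIs in the former and 2634 and 3110 in the latter. *Cebpe*, which encodes C/EBPε, stood at 232 and 207 CPM in the former and at 24.2 and 26.7 in the latter. *Il1b*, an inflammatory cytokine, went the opposite way, at 403 and 468 in the former and 3056 and 1793 in the latter. *Lcn2* was at 10174 and 10102 CPM against 678 (650 to 707) and 895 (851 to 940), and in the latter it was detected in 69.7% and 73.5% of barcodes. Other members differed between genotypes in barcodes rich in the group: *Stfa1* stood at 351 and 1025 CPM there, *Olfm4* at 30.7 and 99.5, *Stfa3* at 184 and 343 and *Mmp9* at 895 and 1474. In barcodes without the group the summed level of *Stfa1* went the other way, at 69.8 (61.1 to 79.5) and 30.2 CPM (22.6 to 39.4). It was detected in only 6.87% and 5.38% of those barcodes, so few barcodes stand behind these levels. With 1 to 9 UMIs of the group it stood at 106 and 162 CPM. *Stfa2l1* was less tied to the group, at 941 and 1452 against 466 and 469.

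Of 5254 genes with enough UMIs, those most like the summed members by mean r over both libraries were *S100a8* (0.80), which the gate used, *Wfdc21* (0.70), *S100a9* (0.68, used by the gate), *Cd177* (0.66), *Ifitm6* (0.62), *Adpgk* (0.62), *Anxa1* (0.61), *Pglyrp1* (0.57), *Syne1* (0.55) and *Itgb2l* (0.54). The nearest single gene was *Adpgk* for *Ltf* and *Camp*, *Cd177* for *Ngp*, *S100a8* for *Lcn2* and *Mmp8*, and *Retnlg* for *Mmp9*. Among the stefins it was another gene of the cluster, *Stfa2* for *Stfa1* and *Stfa3* and *Gm5483* for *Stfa2l1*. For *Olfm4* it was *Ceacam10*, at a mean r of only 0.15.

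Other granule genes were read from lists set apart from the members, beside the shares of all genes past 2-fold (1.75% higher and 8.80% lower in *Ly6g*-positive barcodes, 2.00% and 3.59% in *Ly6g*-negative barcodes). Of 10 other secondary granule genes, 0 were past 2-fold in *Ly6g*-positive barcodes (median log2 0.50), and in *Ly6g*-negative barcodes 2 were higher in PEP-619WW, *Cd177*, a neutrophil surface protein (46.8 and 97.9 CPM), and *Orm1*, an acute phase protein. Of 14 measured tertiary and secretory genes, 1 was higher in *Ly6g*-positive barcodes, the membrane metalloproteinase gene *Mmp25* (88.6 and 197 CPM). In *Ly6g*-negative barcodes *Alpl* was higher and *Cxcr2* (248 and 102), *Csf3r* (404 and 170) and *Il1b* (2521 and 966) were past 2-fold lower.

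The primary granule list went the other way from the members in *Ly6g*-positive barcodes. Of 7 genes, 5 were past 2-fold lower in PEP-619WW, *Mpo* (97 and 3 UMIs), *Elane* (127 and 7), *Prtn3* (391 and 76), *Ctsg* (93 and 4) and *Ms4a3* (111 and 23), with a list median of -2.52, where 8.80% of all genes were lower, and 0 of 7 were past 2-fold in *Ly6g*-negative barcodes. Only 5 (PEP-WT) and 1 (PEP-619WW) of the *Ly6g*-positive barcodes were in the primary state, and those 5 held 64.0% to 97.6% of the UMIs of these 5 genes in PEP-WT. *Mpo*, *Elane* and *Ctsg* passed the minimum of 20 UMIs only through PEP-WT, where they were higher, so no conclusion is drawn from them. Of 5 other stefin family genes with enough UMIs, 3 were higher in *Ly6g*-positive barcodes, where 1.75% of all genes were, *Stfa2* (242 and 560 CPM), *BC100530* (298 and 664) and *Gm5416* (7 and 23 UMIs). In *Ly6g*-negative barcodes *Stfa2* and *BC100530* were higher and *Gm5416* lower (20 and 5 UMIs), where 2.00% and 3.59% of all genes were. In each class *Gm5416* passed the minimum only through the library where it was higher, so no conclusion is drawn from it. Of 8 regulators of granule genes only *Cebpa* was past 2-fold, lower in *Ly6g*-positive barcodes (41 and 16 UMIs), and *Cebpe* stood at 128 and 168 CPM. *Cebpa* too passed the minimum only through PEP-WT, so no conclusion is drawn from it. Of 5 cycle genes *Top2a* was past 2-fold lower in *Ly6g*-positive barcodes (222 and 106).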

How the data were processed

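Droplet libraries (10x Genomics 3′ assay) were made from sorted spleen cells of 1 sample per genotype. The authors deposited whole-number UMI counts per gene and barcode on mm10, made with Cell Ranger (6.0.0 in the submitters' processing notes, a later release in the study's methods). Each sample has 2 sets of counts whose relation no source used here gives: run 1, and run 2, whose 9539 and 11029 barcodes are the cell numbers of the study's methods. Run 1 was used, since the rule that chose members and classes names it, and run 2 was set beside it as other barcodes. The runs were not taken as replicates.

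All deposited barcodes were kept, without filters on genes or doublets, and no doublet caller was run. Classes did not overlap: neutrophil barcodes were taken first. UMIs were summed per class, divided by all UMIs of the class and given as CPM (UMIs per 1000000 UMIs of the class) with exact Poisson intervals. Shares have Clopper-Pearson intervals, their differences Newcombe intervals, and ratios exact conditional intervals, given only above 3 UMIs in both libraries (in the 4 states, above 0). "Past 2-fold" was counted over genes with 20 or more UMIs in both libraries together, with 0 set to 3 UMIs. A gene with few UMIs can pass that minimum through the library where it is high. UMI counts of 14821 and 8576 barcodes set the precision, and intervals cover counting error only. Detection was also given after thinning barcodes to 1000 UMIs. The calculation of ratios was tested on simulated data.

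Members and lists were chosen with earlier results of these data known. Named genes were the members, examples from the lists, and the 10 genes with the highest mean r. Gene positions came from GENCODE M21 (GRCm38) and promoters from RefSeq (GRCm38.p6). Scripts ran in python 3.11.15 with biopython 1.88, numpy 2.4.6, scipy 1.17.1 and matplotlib 3.10.9.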

Additional observations from a re-analysis of the deposited data

Results flagged for a closer look

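Run 2 was outside the comparisons, yet its neutrophil gate held members above the level of T cell barcodes. That background was hardly measured in PEP-WT, where run 2 had 10 T cell barcodes with 28183 UMIs, 1 of them from a member. *Lcn2* stood at 226 CPM in PEP-WT and 183 in PEP-619WW, *Stfa2l1* at 401 and 650, and *Mmp9* at 277 and 463. Few UMIs of 3 other members were found there: *Camp* had 1 and 2 UMIs, *Ngp* 14 and 2, and *Ltf* 9 and 25 in the 590 and 1071 barcodes of the gate. A *Ly6g* UMI was found in 3.22% (PEP-WT) and 2.43% (PEP-619WW) of barcodes in the gate of run 2, against 37.5% and 43.2% in run 1.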

How the results depend on the processing

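No paired analysis was possible because each genotype has 1 library per run and no replicate numbers to pair. In *Ly6g*-positive barcodes the median log2 ratio of the members (0.93) stayed above 0 in run 1, from 0.43 to 1.09 over 10 alternatives. It was 0.62 without barcodes of mixed content, 0.43 with barcodes thinned to 1000 UMIs, 0.49 for the mean of barcode levels, 1.09 with median-of-ratios scaling and 0.84 in run 2 (4 members, 19 and 26 barcodes). The count of 4 members past 2-fold became 2 in run 2, without mixed barcodes, with thinning and for the mean of barcode levels, and 3 without the 10 barcodes with most member UMIs. No share of all genes is given beside these counts, so they stand without a background. *Camp* reversed to -0.56, -0.31 and -0.38, and *Ltf* to -0.48, -0.33 and -0.37, without mixed barcodes, with thinning and for the mean of barcode levels.

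In *Ly6g*-negative barcodes the median (0.99) was 1.22 with 100 or more UMIs of *S100a8* and *S100a9*, 1.15 with these at 1% or more of UMIs, 1.38 without mixed barcodes, 0.87 thinned, 0.72 for the mean of barcode levels, 0.70 without the 10 barcodes with most member UMIs of each genotype (an alternative added after the data were seen) and -0.0095 in run 2. In run 2 the ratios of *Lcn2* (-0.31), *Mmp8* (-0.76), *Stfa1* (-0.91) and *Stfa3* (-1.05) were reversed. Run 2 is a set of other barcodes, not a change of processing. Its gate held *Ly6g* in 3.22% (PEP-WT) and 2.43% (PEP-619WW) of barcodes, against 37.5% and 43.2% in run 1. Its values in this section thus compare unlike barcodes. The difference in barcodes with a member share of 1% or more (17.0 points) was 32.4 with 100 or more UMIs of the gate genes, 31.9 without mixed barcodes and 0.117 in run 2. The causes were not tested. *Olfm4* and, in *Ly6g*-negative barcodes, *Stfa3* rest on under 300 UMIs in each library.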

Other observations

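In PEP-WT mice 29 *Stfa3* UMIs lay in 9 T cell barcodes, up to 7 in 1 barcode, a level of 2.67 CPM (1.79 to 3.83). PEP-619WW T cell barcodes held 2 *Stfa3* UMIs in 2 barcodes. The other 2 stefins had 1 and 5 UMIs in PEP-WT T cell barcodes (*Stfa1* and *Stfa2l1*).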
